A study of Mus musculus with 2 samples.

Results

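Alternative last exons were described in the gastrocnemius, the large fast muscle of the calf, of 4-day-old male B6CASTF1/J mice, the F1 hybrid of the strains C57BL/6J and CAST/EiJ. The data are long-read RNA sequencing of 1 group, with 2 libraries labelled as biological replicates 1 and 2 and 2 µg of total RNA each. No treatment, genotype or time is compared. The libraries have a biosample entry each but the same donor entry in the labels. Whether they come from separate mice is thus not settled, and differences between the libraries may be technical. The libraries held 1066347 and 1100253 counts, of which 70.4% and 71.7% lay on Known models, the transcripts annotated in GENCODE M21. Members are genes that used 2 or more last exons side by side. For each protein-coding gene, the multi-exon Known models were grouped by the acceptor of their last exon, the base at which that exon starts. A gene was kept when 2 or more of its last exons did not overlap and each had at least 10 counts and at least 10% of the gene's Known counts in both libraries. This gave 39 genes with 78 last exons, 2 per gene, of 12717 protein-coding genes with a counted Known model. Of those genes, 1724 had 2 or more last acceptors with any count, and 1344 had 2 or more last exons that did not overlap. The counts and shares in both libraries chose the members, so they are given as a description.

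A transcript ends where the cleavage and polyadenylation machinery cuts it, usually shortly after the hexamer AATAAA or its variant ATTAAA. When a gene has a cleavage site in more than 1 last exon, splicing and cleavage compete. A skipped last exon is either joined to the transcript as its end or left out. A composite last exon is an internal exon that is extended past its own donor, the GT at the start of the next intron, when that donor is not used. Unlike a choice between sites within 1 last exon, a change of last exon usually also changes the end of the protein. Tropomyosins and the calcium pump of the sarcoplasmic reticulum are textbook cases in muscle. In the text below, the proximal last exon is the one closer to the gene's start, the distal last exon is the one further from it, and the distal share is the distal count over the sum of both.

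The coding ends of some members show what the choice changes. They are printed as the coding part of the last exon, with the stop codon in capitals, on the transcribed strand and as in the GENCODE M21 transcripts (GRCm38, which is mm10), so they are the reference sequence and not that of a CAST allele. Atp2a2 is shown because its proximal last exon runs on past an internal donor to a stop codon of its own (minus strand, chr5:122457151-122457426), so that the stretch before that donor is shared with the distal model, and because the distal last exon adds only a few codons (chr5:122454291-122454304).
Atp2a2 proximal: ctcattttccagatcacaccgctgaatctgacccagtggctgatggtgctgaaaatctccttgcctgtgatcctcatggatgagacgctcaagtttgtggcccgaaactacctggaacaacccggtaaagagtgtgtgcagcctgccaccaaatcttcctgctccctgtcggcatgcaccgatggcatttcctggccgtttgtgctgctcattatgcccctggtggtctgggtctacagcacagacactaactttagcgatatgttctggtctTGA
Atp2a2 distal: caatactggagTAA
Lamp2 and Vamp4 are shown because both of their ends have the same length. The Lamp2 ends (minus strand, chrX:38421712-38421851 and chrX:38405432-38405571) are 140 bases each and identical at 75 (53.6%), and the Vamp4 ends (plus strand, chr1:162594546-162594574 and chr1:162597049-162597077) are 29 bases each and identical at 14 (48.3%), with no gaps allowed.
Lamp2 proximal: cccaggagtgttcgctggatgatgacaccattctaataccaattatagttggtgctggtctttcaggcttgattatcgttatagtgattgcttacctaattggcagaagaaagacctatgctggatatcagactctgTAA
Lamp2 distal: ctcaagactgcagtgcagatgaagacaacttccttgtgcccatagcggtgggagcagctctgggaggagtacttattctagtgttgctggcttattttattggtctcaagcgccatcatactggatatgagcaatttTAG
Vamp4 proximal: ttcttatagttgtgaaattccgtactTGA
Vamp4 distal: ctcagatcatcctgcacttgaaaaaaTGA
Qk (minus strand, chr17:10214169-10214194 and chr17:10209615-10209631), Dnajb6 (plus strand, chr5:29766325-29766430 and chr5:29785031-29785113) and Pdlim7 (minus strand, chr13:55507027-55507123 and chr13:55498648-55498734) are shown because their short ends close proteins of different length. The distal models also have more exons, with 8 against 7 in Qk, 10 against 8 in Dnajb6 and 13 against 8 in Pdlim7. The printed ends alone thus do not set the length of the protein. The proximal ends of Ghr (minus strand, chr15:3327604-3327686) and Papola (plus strand, chr12:105809524-105809708) close proteins that are much shorter than those of the distal models.
Qk proximal: gtatggctttcccaacgaaaggcTAA
Qk distal: ccgccaccggcaacTAA
Dnajb6 proximal: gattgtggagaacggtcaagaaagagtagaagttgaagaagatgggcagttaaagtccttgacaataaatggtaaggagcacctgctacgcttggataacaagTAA
Dnajb6 distal: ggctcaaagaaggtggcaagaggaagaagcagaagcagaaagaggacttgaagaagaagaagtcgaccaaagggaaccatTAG
Pdlim7 proximal: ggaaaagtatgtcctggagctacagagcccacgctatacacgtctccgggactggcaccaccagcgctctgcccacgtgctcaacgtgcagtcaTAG
Pdlim7 distal: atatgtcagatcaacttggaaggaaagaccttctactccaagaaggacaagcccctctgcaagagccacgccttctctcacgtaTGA
Ghr proximal: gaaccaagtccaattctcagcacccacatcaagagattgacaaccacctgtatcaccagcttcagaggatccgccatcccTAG
Papola proximal: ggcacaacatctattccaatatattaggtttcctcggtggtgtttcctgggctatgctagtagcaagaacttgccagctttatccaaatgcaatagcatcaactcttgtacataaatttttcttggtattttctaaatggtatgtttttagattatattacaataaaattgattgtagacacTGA

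The signal around the 3′ end is shown for Tpm3 and Qk, in which one end holds AATAAA and the other ATTAAA, and for Atp2a2, in which both hold AATAAA. Each line has 30 bases with the signal nearest to the annotated end in capitals (Tpm3, plus strand, chr3:90092096-90092125 and chr3:90100864-90100893; Qk, minus strand, chr17:10210189-10210218 and chr17:10202609-10202638; Atp2a2, minus strand, chr5:122456340-122456369 and chr5:122453523-122453552).
Tpm3 proximal: ttccaaccccatATTAAAatgttaagctgc
Tpm3 distal: gtgacattttgaAATAAAgaaccagtccct
Qk proximal: ataattgaaaaagcAATAAAcatttattga
Qk distal: aattggatactgATTAAAacattacagtgt
Atp2a2 proximal: gtttaaaagaaaAATAAAacattttaaatg
Atp2a2 distal: tgatttcaggtaAATAAAtctattctacga
The hexamers AATAAA and ATTAAA were searched on the transcribed strand in the last 50 bases of the most counted model of each last exon. AATAAA was found in 28 of 39 proximal ends (71.8%) and in 29 of 39 distal ends (74.4%), against 59.6% of the 14193 last exons of all protein-coding genes searched the same way. Either hexamer was found in 30 proximal (76.9%) and 32 distal ends (82.1%), against 73.8% of all, and 25 members held one at both ends. The last exons of all genes were not matched to those of the members for counts or shares. The gaps therefore do not show that alternative last exons hold these hexamers more often than other last exons. Neither hexamer was found at either end of Sept11 and Tcf25.

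Across the 39 members, the mean distal share ran from 17.2% in Lamp2 to 82.5% in Qk with a median of 47.0%. The proximal last exon held more than 50% of the pair in both libraries in 19 members and the distal one in 14. In the other 6 (Pnkd, Slc44a1, Araf, Dtna, Mxra7 and Acbd6) the leading exon was not the same in both libraries. Known counts per gene ranged from 57 to 1400 over both libraries with a median of 137, and the exact (Clopper-Pearson) 95% interval of a share in 1 library was 23.1 points wide at the median in replicate 1 and 24.4 in replicate 2. These intervals cover counting error only. The 2 chosen last exons held all Known counts at the median member and at least 71.8% in each.

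**Figure D1:**
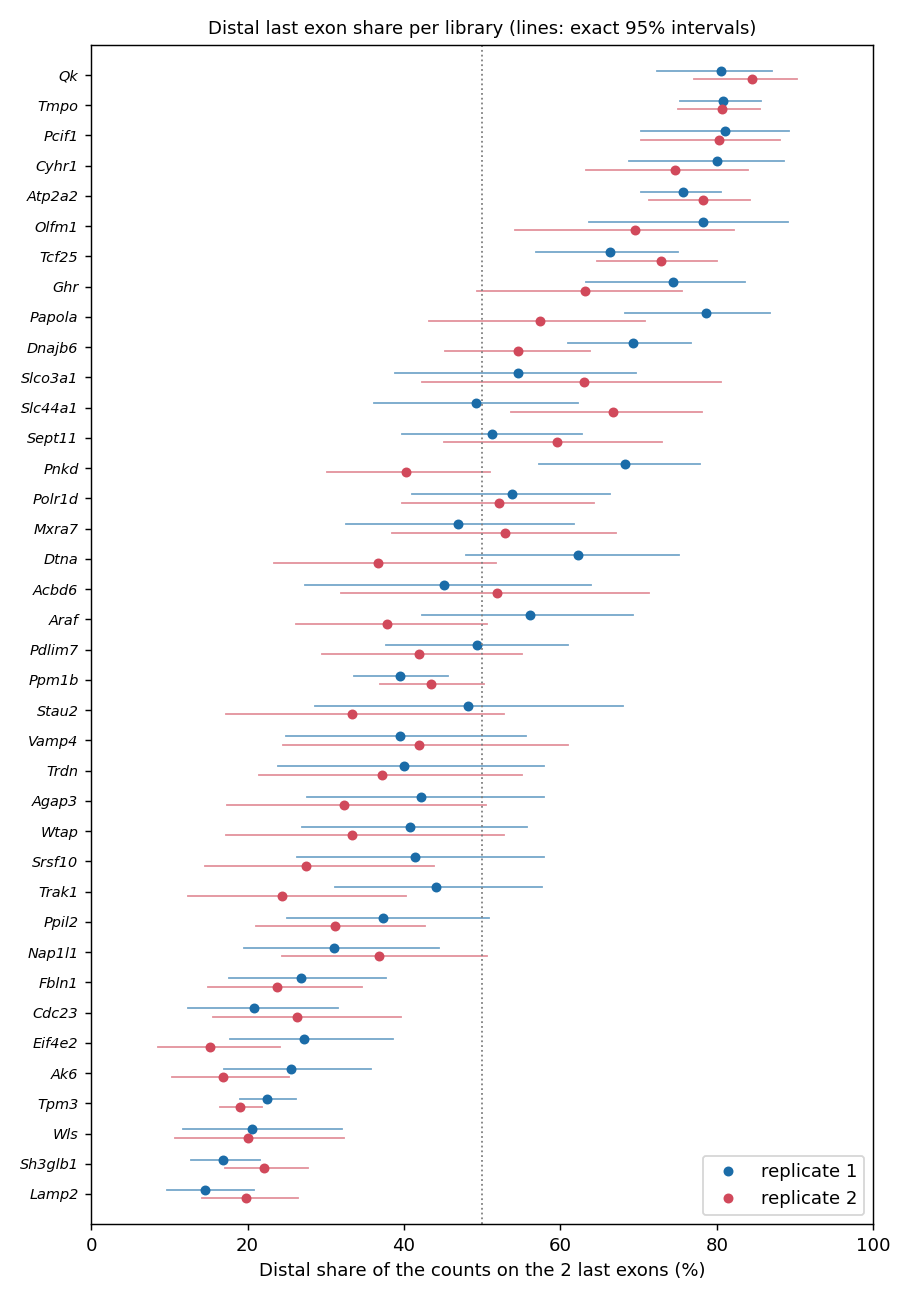
Distal share of the counts on the 2 last exons (x axis, percent) for 38 of the 39 members (y axis, ordered by the mean), with 1 point per library and its exact 95% interval as a line; the dotted line marks 50%. Lamp2, Sh3glb1, Wls and Tpm3 lie lowest, Qk, Tmpo and Pcif1 highest, and the libraries of Pnkd, Dtna and Araf lie on opposite sides of the line.

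Among genes of the contractile and calcium apparatus, Tpm3, a tropomyosin of slow fibres and of the cytoskeleton, was the most counted member. Its proximal last exon (chr3:90091931-90092130, plus strand) had 417 counts in replicate 1 and 698 in replicate 2, and its distal one (chr3:90099528-90100901) had 121 and 164. The proximal end led in both libraries, and the distal share was 20.8 ± 2.45% (mean ± SD, n = 2). The proximal model codes for 284 residues and the distal one for 248, the lengths of a muscle and of a cytoskeletal tropomyosin. The retrogene Tpm3-rs7, a copy of Tpm3 that could take or give reads, held 64 and 78 counts. Atp2a2 codes for SERCA2, the calcium pump of slow muscle and heart. Its distal last exon (chr5:122453514-122454304, minus strand) had 215 and 133 counts, and its proximal one (chr5:122456340-122457426) had 69 and 37. The distal end, of the muscle form SERCA2a with 998 residues, held 77.0 ± 1.79% of the pair, and the proximal end, of the general form SERCA2b with 1044, held the rest in both libraries.

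Pdlim7 codes for Enigma, an adaptor with a PDZ domain and LIM domains found at the Z-disc. Its proximal last exon had 39 and 36 counts and its distal one 38 and 26. With NIC and NNC models, the unannotated splice combinations described further on, its distal share was 20.0% and 11.8% in place of 49.4% and 41.9%. The distal model codes for 457 residues and the proximal one for 222. Dtna, alpha-dystrobrevin of the dystrophin complex, had 20 and 31 proximal counts and 33 and 18 distal counts, and the order of its ends changed between the libraries. Trdn, triadin of the calcium release complex, had 21 and 22 proximal and 14 and 13 distal counts. The model of the distal Trdn end is annotated as incomplete at its 3′ end, has no stop codon and starts its last exon at an acceptor that 2 other annotated models use internally, so this end may not be a last exon of full transcripts. With NIC and NNC models added, its distal share was 57.7% and 52.1%, so the lead turned to the distal end. The other genes of a list of 51 muscle genes with known alternative 3′ ends mostly put their Known counts on 1 end. In Tpm1 a single last exon held 99.0%, in Pdlim3 99.5% and in Myl1 99.9%, and 6 of the 51 genes (Tpm3, Atp2a2, Pdlim7, Tmpo, Dtna and Trdn) were members.

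Among genes of membranes and the nuclear envelope, Tmpo codes for the LAP2 proteins. Its distal last exon, of the membrane-spanning beta form with 452 residues, had 194 and 192 counts, and its proximal one, of the nucleoplasmic alpha form with 693, had 46 in each. The distal shares of 80.8% and 80.7% differed by 0.161 points, the smallest difference of any member. Lamp2, a lysosomal membrane protein whose ends encode different transmembrane and cytoplasmic tails, had 146 and 142 proximal counts and 25 and 35 distal counts. Both forms have 415 residues, and the proximal one led in both libraries. Ghr, the growth hormone receptor, had 20 and 21 counts on the proximal end, which closes a form of 297 residues, and 58 and 36 on the distal end of the 650-residue receptor. In rodents the short form is the circulating growth hormone binding protein.

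Other transport and membrane genes were counted less. Vamp4, a SNARE of the trans-Golgi network, had 26 and 18 proximal and 17 and 13 distal counts, and both forms have 141 residues. Slc44a1, a choline transporter, had 31 and 21 proximal and 30 and 42 distal counts, so its distal share was 49.2% in replicate 1 and 66.7% in replicate 2. In Slco3a1, an organic anion transporter, the distal end led in both libraries with 24 and 17 counts against 20 and 10. In Wls, which carries Wnt proteins to the cell surface, the proximal end led with 54 and 48 counts against 14 and 12. Its stop codon is the same in both models, so the choice there concerns untranslated sequence.

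Several members act on RNA themselves. Qk codes for the RNA-binding protein quaking. Its distal last exon, of the nuclear form with 341 residues, had 99 and 109 counts, and its proximal one, of the form with 319, had 24 and 20. The distal share of 82.5 ± 2.83% was the highest of the members, and every distal count was above both proximal ones. Papola, the main nuclear poly(A) polymerase, had 66 and 31 distal counts and 18 and 23 proximal counts. The proximal model is annotated with 293 residues and the distal one with 739, and the distal share was 78.6% in replicate 1 and 57.4% in replicate 2. Pcif1, which methylates the cap-adjacent adenosine of mRNA, had 60 and 69 distal counts against 14 and 17 on a proximal end whose model is annotated as a retained intron with no coding region.

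In Wtap, a subunit of the m6A writer, the proximal end had 29 and 20 counts and the distal end 20 and 10, with 151 and 396 residues. Srsf10, a splicing factor, had 24 and 29 proximal against 17 and 11 distal counts, with 262 and 183 residues. Eif4e2, a cap-binding protein that represses translation, had 56 and 78 proximal against 21 and 14 distal counts. In these genes and in Stau2, which binds double-stranded RNA (14 and 20 against 13 and 10), the proximal end led in both libraries. With NIC and NNC models added, the distal share of Stau2 was 55.9% and 37.8%, so its order changed between libraries. Polr1d, a subunit of RNA polymerases I and III, had nearly even ends, with 30 and 33 proximal and 35 and 36 distal counts. In Tcf25, a factor of ribosome quality control, the distal end led with 75 and 102 counts against 38 and 38. This pair held 72.0% and 71.8% of the Known counts of Tcf25. With acceptors within 5 bases joined, its mean distal share was 77.8% in place of 69.6%.

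Among signalling, chaperone and metabolic genes, Sh3glb1, endophilin B1, had 242 and 197 proximal and 49 and 56 distal counts, with ends of 365 and 355 residues. Ppm1b, a protein phosphatase of the PP2C family, had 164 and 126 proximal and 107 and 97 distal counts. Both led with the proximal end in each library. Dnajb6, a chaperone whose long form is nuclear, led with the distal end of that form (365 residues, 99 and 65 counts) over the short form (242 residues, 44 and 54 counts). In Araf, a RAF kinase, the proximal end closes a form of 186 residues that lacks the kinase domain of the 604-residue form. It had 25 and 41 counts against 32 and 25, and the order of the ends changed between libraries. In Ak6, the gene of an adenylate kinase, the proximal end had 67 and 89 counts against 23 and 18, but that exon overlaps Taf9 on the same strand, so their reads cannot be told apart there. The proximal Ak6 model is annotated with 264 residues and the distal one with 172. Whether the proximal model codes for an adenylate kinase was not tested.

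The remaining members were Fbln1, Olfm1, Nap1l1, Cdc23, Pnkd, Acbd6, Cyhr1, Trak1, Sept11, Ppil2, Mxra7 and Agap3. Fbln1 codes for fibulin-1, a matrix protein with known variant ends, and its proximal end had 60 and 61 counts against 22 and 19. Olfm1, noelin, had 36 and 32 distal counts against 10 and 14, and its distal model adds the part that brings 153 residues to 485. The proximal end also led in both libraries in Nap1l1, a histone chaperone, Cdc23, a subunit of the anaphase-promoting complex, Trak1, a kinesin adaptor of mitochondria, Ppil2, a cyclophilin, and Agap3. With NIC and NNC models added, the distal share was 64.6% and 50% in Trak1 and 65.9% and 61.8% in Agap3, so neither kept its proximal lead in both libraries. The distal end led in Cyhr1 and in Sept11, a septin. Mxra7 (26 and 24 against 23 and 27) and Acbd6 (17 and 13 against 14 and 14) were close to even in each library. With NIC and NNC models added, the distal share of Mxra7 was 42.9% and 42.4%, so its proximal end led in both libraries. Agap3 is a member only through a proximal end whose model is annotated as a processed transcript with no coding region.

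By structure, 18 members were composite and 21 skipped. Composite here means that another annotated model uses the proximal acceptor for an internal exon whose donor lies inside the last exon, and in all 18 the bases after that donor were GT. The proximal end led in both libraries in 9 composite and 10 skipped members and the distal end in 7 of each. The median distal share was 43.9% in composite members and 48.5% in skipped ones. The acceptors lay between 714 and 116145 bases apart with a median of 8389. Nap1l1 (714), Ppil2 (1653), Ppm1b (1843), Tcf25 (2071) and Vamp4 (2503) had the closest ends, and Stau2 (116145), Acbd6 (114751), Pnkd (64666), Slc44a1 (56198) and Trdn (37906) the most distant. The median length was 817 bases for proximal and 1253 for distal last exons.

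The stop codon differed between the leading models in 33 members. It was the same in Ppil2, Nap1l1 and Wls, and in Pcif1, Agap3 and Trdn one end had no coding model with a stop. Of the 33, the distal model coded for more residues in 16, the proximal one in 15, and both for the same number in Lamp2 and Vamp4. The distal end was therefore not regularly the longer protein, although the distal transcript model was the longer one in 24 of 39 members. A last exon overlapped another annotated gene in 6 members, on the same strand in Ak6 and on the opposite strand in Tmpo, Pcif1, Ppil2, Cdc23 and Araf. Whether the counting used strand is not given in the sources used here, so the counts of these ends are uncertain.

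Long reads also show which start went with which end. A start is taken here as the first donor, the end of the first exon. In 26 members all counts of the pair shared 1 start, and 13 had 2 or more. These are counts on Known models, so the annotation limits which pairs of start and end can be counted. In Tpm3 all 1115 proximal counts came from the upstream start and all 285 distal counts from the downstream one, in both libraries. The annotation holds the proximal end with the upstream start only, but the distal end with both. NIC and NNC models also held crossed pairs, with 10 and 8 counts from the upstream start to the distal end and 3 and 6 from the downstream start to the proximal end, beside 25 and 31 from the downstream start to the distal end and 19 and 20 from the upstream start to the proximal end. In Eif4e2, the downstream start, with 36 and 51 counts, was joined only to the proximal end, while the upstream start reached both. The annotation has no model from the downstream start to the distal end, and NIC and NNC models held 21 and 17 counts on that pair. In Cyhr1 the distal end was used only by a start that lies downstream of the proximal last exon, so no Known count passed over the proximal end to reach the distal one. In Pnkd the proximal end, which the annotation gives with that start alone, came only from the upstream start, and the distal counts were split between the upstream start (31 and 16) and the downstream one (27 and 21).

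In Olfm1 and Wtap both starts reached both ends. The distal end took 77.8% of the counts of the upstream Olfm1 start and 72.3% of those of the downstream one, and 26.7% and 44.9% in Wtap, on 27 to 65 counts per start. In 35 members every distal count came from a transcript that began upstream of the proximal last exon and so passed over it. The exceptions were Cyhr1, Pnkd, Tmpo and Qk, and in Tmpo and Qk over 98% of the distal counts did so as well.

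**Figure D2:**
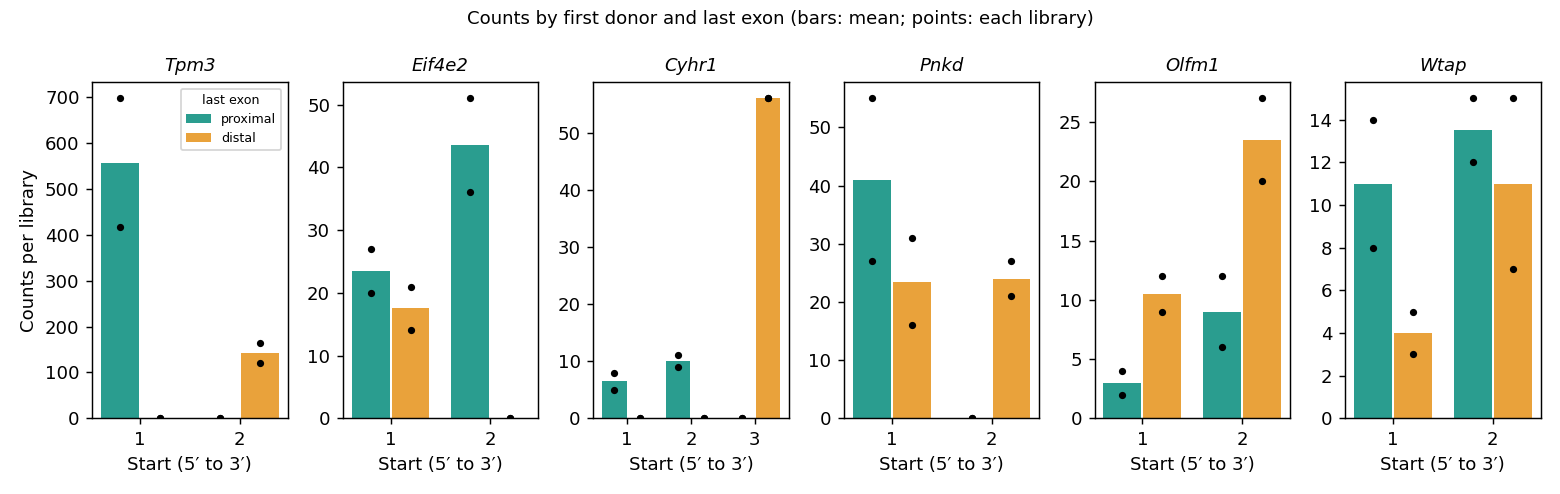
Counts on Known models per library (y axis, scaled for each gene) by start, numbered from 5′ to 3′, and by last exon for 6 members with 2 or more starts; bars are the mean of the 2 libraries and points the single libraries. Each end of Tpm3 has a start of its own, whereas both starts of Olfm1 and of Wtap reach both ends.

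The libraries were then set against each other. For every protein-coding gene with 2 or more last exons that did not overlap and at least 20 counts on them in each library, the most distal last exon was tested against the others between replicate 2 and replicate 1 with a two-sided Fisher's exact test and Benjamini-Hochberg adjustment. The test holds counting error only and compares 2 libraries, and the rule asks for both ends in both libraries, so a gene that switched wholly could not be a member. No member was called, and 0% of the 640 genes tested were (smallest adjusted p of the exact test 0.346, in Pnkd). Without adjustment, 23 genes (3.59%) and among them 5 members had an exact p under 0.05. The chi-square test gave 19 genes without adjustment and 0 with it. The minor side held 32.9% of the counts at the median member and 1.54% at the median of the 601 other genes. The median absolute difference was 6.57 points in members and 1.92 over all genes tested. The member rule asks for a minimum share on both ends, and the counting error of a share is larger there than near 0% or 100%. Neither this gap nor the number of members with an exact p under 0.05 therefore shows that members differed more between the libraries than other genes.

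**Figure D3:**
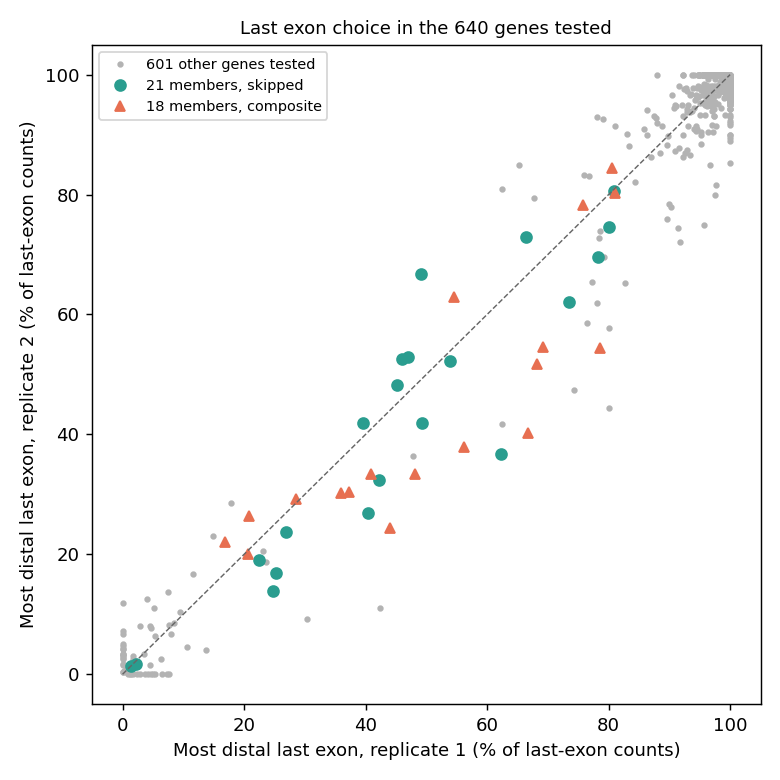
Share of the most distal last exon in replicate 1 (x axis, percent) and replicate 2 (y axis, percent) for the 640 genes tested; grey points are the 601 other genes, circles skipped and triangles composite members, and the dashed line marks equal shares. The other genes gather at both corners and the members lie between, on both sides of the line. Lamp2 and Ppm1b lie near 0 because a rarely counted last exon further on is the most distal one there.

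The 5 members with an unadjusted exact p under 0.05 were Pnkd, Papola, Dtna, Dnajb6 and Araf, none of which passed adjustment. Pnkd, the gene mutated in a familial paroxysmal dyskinesia, had the largest difference of any member. Its proximal end had 27 and 55 counts and its distal end 58 and 37, so the distal share was 68.2% in replicate 1 and 40.2% in replicate 2, a difference of -28.0 points (95% Newcombe interval -41.0 to -13.4). Of these distal counts, 27 and 21 came from the start downstream of the proximal last exon and could not have used that end. The share in Pnkd thus also holds the use of its starts. The difference was -25.5 points in Dtna (-42.4 to -6.11), -21.2 in Papola (-36.3 to -5.39), -18.3 in Araf (-34.4 to -0.628) and -14.6 in Dnajb6 (-26.0 to -2.83). The interval also left out 0 in Trak1, at -19.7 points, and in Slc44a1, at 17.5. In all 7, the shorter of the leading models had a higher share in replicate 2 than in replicate 1. At the other extreme, 13 members had an interval within 20 points of 0 on either side, so a difference beyond that size is outside their counting error. The smallest differences were those of Tmpo, Wls (20.6% and 20.0%), Pcif1 (81.1% and 80.2%), Polr1d (53.8% and 52.2%) and Vamp4 (39.5% and 41.9%).

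Model length moved with the library. The share of the shorter of the leading models was higher in replicate 2 than in replicate 1 in 26 of 39 members and lower in 13. The distal share was lower in replicate 2 in 25 members and higher in 14. Over all Known counts, the median length of the counted model was 2112 bases in replicate 1 and 1904 in replicate 2. Over the Known counts of the member genes pooled it was 2709 and 2358. Both medians pool counts over genes, so they also move with the level of each gene and not only with its ends. Tpm3, the most counted member, had 538 and 862 Known counts, of which 417 and 698 lay on its proximal model of 1139 bases. The part of transcript length in the differences between the libraries was not tested.

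**Figure D4:**
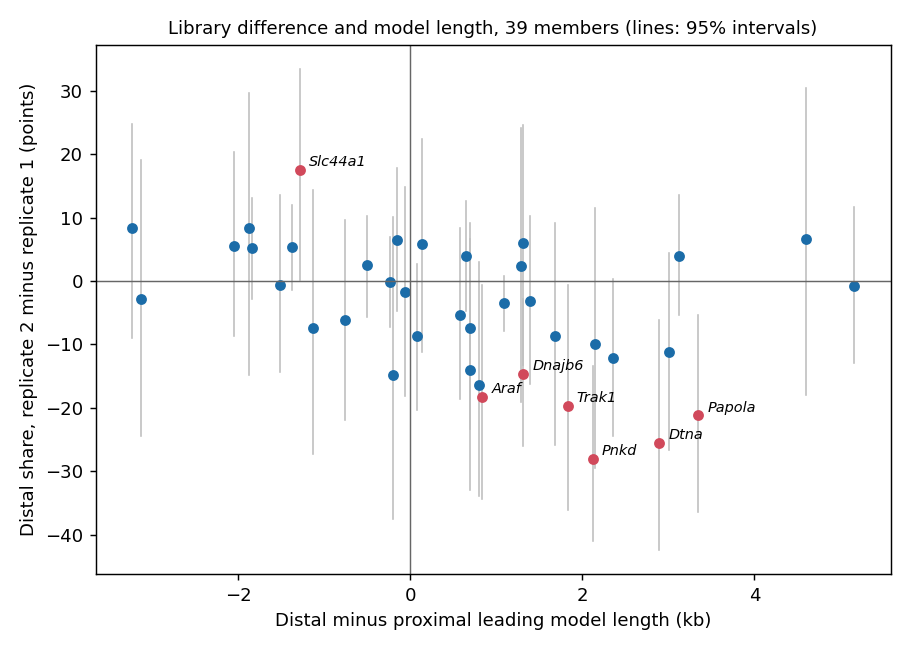
Difference of the distal share between replicate 2 and replicate 1 (y axis, percentage points, with 95% Newcombe intervals as lines) against the length of the distal minus the proximal leading model (x axis, kb) for the 39 members; red points have an interval that leaves out 0. Of these 7, 6 lie at lower right and Slc44a1 at upper left.

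Models of other classes that ended in the same last exons gave a partly different picture. NIC models use only known splice sites but join them in an order that GENCODE M21 lacks. NNC models have at least 1 site that it lacks, and ISM models match only a stretch of an annotated chain. NIC and NNC models added 1626 counts to the 78 last exons. In the 27 members with at least 10 such counts, the leading end was that of the Known models in 16, with a median absolute difference of 25.4 points and r = 0.31 across members, which share libraries and depth. Qk kept its order, with 66 proximal and 306 distal counts and a distal share of 82.3%, and 141 and 133 of the distal ones came from a single NNC chain of 8 exons. In Pdlim7 these classes held 356 proximal counts against 16 distal ones, and 131 and 185 came from 1 NIC chain of 7 exons that shared 5 of its 6 introns with the Known proximal model. Tpm3 had 52 against 74, Lamp2 8 against 21, Agap3 8 against 72, Trak1 5 against 61 and Eif4e2 3 against 40, all with the distal end ahead where Known models had the proximal one. The Tpm3 chain with the most of these counts (15 and 17) began at the start of the Known distal model.

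ISM models added 948 counts, and in the 22 members with at least 10 of them the leading end was that of the Known models in 15 (median absolute difference 15.5 points, r = 0.53 across members). Trdn held 472 of them, 468 on the distal end and 4 on the proximal one. The most counted of these chains had 134 and 163 counts and shared 7 of its 9 introns with the Known distal model. In Atp2a2 the ISM counts were 26 proximal and 44 distal, and the distal end led as in the Known models. Lamp2 had 10 proximal and 0 distal ISM counts, and a count of 0 allows up to 3.

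**Figure D5:**
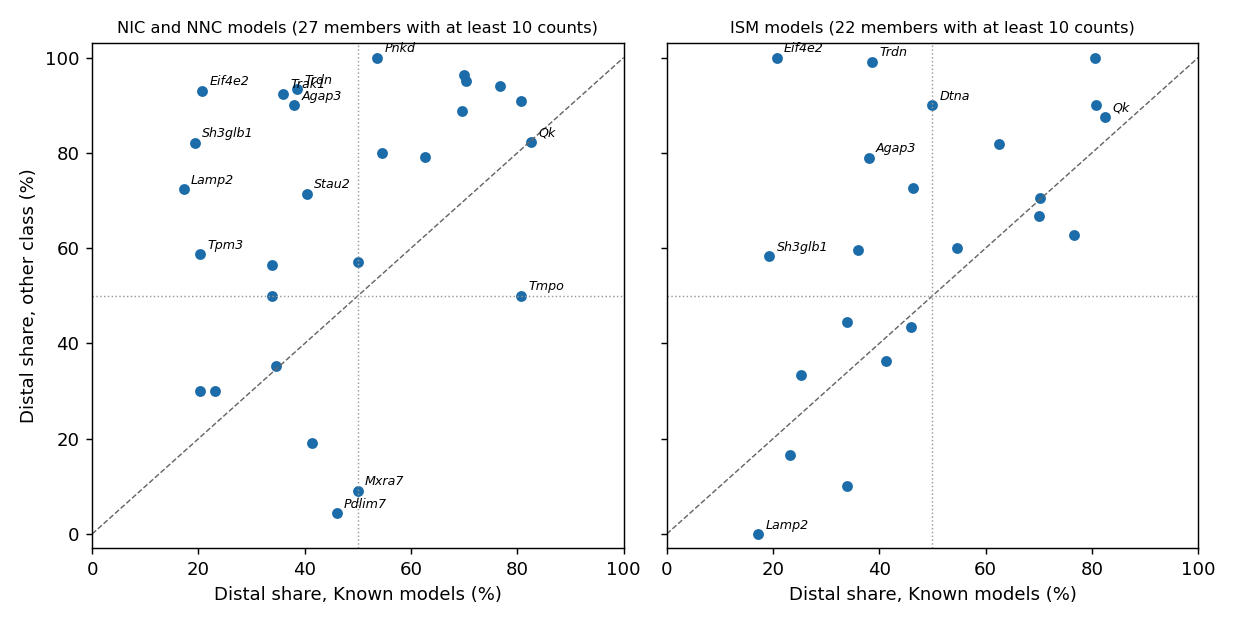
Distal share in Known models (x axis, percent, both libraries summed) against that in NIC and NNC models (left) and in ISM models (right) on the same last exons (y axis, percent), for members with at least 10 counts of the class. Eif4e2, Trdn, Trak1 and Agap3 lie high in the upper left of the left panel and Pdlim7 near its floor, while Qk lies on the dashed line of equal shares.

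At the level of whole genes, the part of members that differed between the libraries was close to that of all genes tested. By Fisher's exact test on counts of all classes with Benjamini-Hochberg adjustment, 9.74% of 11027 genes differed (5.25% higher and 4.49% lower in replicate 2, a balance that turned with Known models alone), and so did 3 of the 39 members (7.69%). Tpm3 was higher, with 613 and 954 counts (log2 difference 0.60, adjusted p of the exact test 8.4e-14). Atp2a2 was lower, with 355 and 245 counts (-0.57, 5.8e-05), as was Sept11, with 223 and 150 (-0.61, 0.0014). In Tpm3 and Atp2a2 the distal share moved by 3.47 and 2.53 points beside these differences. The median log2 difference was -0.06 over the members and -0.04 over all genes tested.

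The genes that cut and polyadenylate transcripts or bind them near their ends were set beside the members. Of 32 cleavage, polyadenylation and U1 factors, 30 could be tested and 1 differed (3.33%, against 9.74% of all genes): Snrpc, a U1 protein, was higher in replicate 2 with 28 and 59 counts (log2 difference 1.02, adjusted p of the exact test 0.023). The median of the list was -0.04. Some of the others had low counts and wide differences that did not pass, such as Scaf8, a factor that binds RNA polymerase II, with 28 and 12 counts (-1.23). None of 16 RNA-binding regulators of splicing and 3′ end choice, Qk among them, passed the test, and their median was -0.04. The widest of these was Tardbp, with 61 and 35 counts (-0.83, adjusted p of the exact test 0.056). In the list of muscle genes with known alternative 3′ ends, 4 were higher and 11 lower of 50 tested (30%, against 9.74% of all genes), with a median of -0.14. The test holds counting error only, so genes with many counts pass at small differences, such as Tpm1 with 8588 and 7984 counts (-0.14). The lists were not matched to all genes for counts. Skeletal muscle markers had 162014 and 166820 counts over 10 genes, and none was at 0. Of these 10, 5 were higher and 4 lower in replicate 2, among the latter Atp2a1, the calcium pump of fast muscle, with 46378 and 26573 counts. Fibroblast markers had 36893 and 25668 counts over 6 genes, 2 higher and 2 lower, and Col1a1, a fibrillar collagen, had 12494 and 6976. Epidermal markers had 4 counts in replicate 1 and 1165 in replicate 2 over 8 genes, and all 8 were higher in replicate 2. Schwann cell and nerve markers had 1501 and 3657 counts over 8 genes, 4 of them higher. Adipocyte markers had 208 and 535 counts, with 5 of 6 tested genes higher. Fewer cells of a type and less RNA per cell cannot be told apart in such tissue, and the part of these cells in the shares of last exons was not tested.

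Close to the thresholds, the members with the lowest count on an end were Olfm1, Slco3a1, Stau2, Trak1 and Wtap, each with 10 counts in 1 library. Just outside lay Gna13, Cavin1 and Fgfr1op2 with 9 counts and Zbtb46 and Gprc5c with 8. By share, the lowest members were Eif4e2 (13.9%), Lamp2 (14.3%), Qk (14.5%), Cyhr1 (15.4%) and Ak6 (16.8%), and just outside lay Asph (9.79%), Htra3 (9.15%), Cdc42 (8.58%), Hnrnpa2b1 (8.47%) and Hnrnpa1 (7.59%). Another 30 genes had passing last exons that overlap each other and were not kept.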

How the data were processed

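The authors deposited, for each library, a table of raw counts of reads per transcript model in TALON format, with gene, class and model, per the file headers, and a model file with exons on mm10. A readme deposited with them names GENCODE M21 as the annotation. The platform, aligner and tool versions were not given in the sources used here. Both libraries form 1 group.

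Members and gene lists were chosen with earlier results of these data known. Known models were grouped by last acceptor, and overlapping last exons were kept from the most to the least counted. Shares carry exact Clopper-Pearson 95% intervals, and differences Newcombe intervals. The Fisher tests ran over all qualifying genes with Benjamini-Hochberg adjustment at 0.05 (scipy 1.17.1), with library totals of 998659 and 1026257 counts on annotated genes, genes with at least 10 counts in sum, and a prior count of 0.5 for log2 differences. The test script was tested on simulated data. The test of last exons takes in every counted last exon of a gene that does not overlap another, so 13 members were tested with minor last exons beside their pair, and a test on pairs alone was added. Genes were named by a rule on rank: counts, shares, differences, distances, structure, lists and thresholds. Other members are named for completeness, except 1 that is counted among the 39 but not reported here by name. Alternatives tried were other minimums, classes, scalings (TMM from edgeR 4.0.16 and size factors from DESeq2 1.42.0) and each replicate alone.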

Additional observations from a re-analysis of the deposited data

Results flagged for a closer look

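One last exon outside the annotation was counted in member genes with at least 5 counts in each library. It lies in Trdn at chr10:33363978-33368360 (mm10, plus strand) and did not overlap either Known last exon of the members. It had 45 counts in replicate 1 and 6 in replicate 2, 51 in all. The minimum chose this exon, so its counts are a description. Its counts come from models outside GENCODE M21, which the comparisons of Known last exons did not use.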

How the results depend on the processing

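With a minimum of 5 or 20 counts per last exon the rule gave 80 or 18 genes in place of 39, and with ISM, NIC and NNC models added it gave 71, 35 of them members (without Atp2a2, Cdc23, Nap1l1 and Tcf25). The other minimums, classes and denominators gave 29 to 51, and each replicate on its own gave 53 and 57. With exon extents from all annotated models Nap1l1 dropped out, and without Agap3, Pcif1 and Trdn, whose ends are led by a non-coding or incomplete model (an alternative chosen after seeing the data), 36 remained. The choice of last exon differed between the libraries in 0 genes by the Fisher test, the chi-square test and the other 6 alternatives run, with 13 to 63 genes at an unadjusted p under 0.05 and 5 members among the 25 of the test on pairs, which was chosen after seeing the data. The gene-level count of 1074 stayed within 1.5 times under every alternative run (889 to 1091). Its balance of 579 higher and 495 lower in replicate 2 became 396 and 493 with Known models only and 630 and 399 with DESeq2 size factors. Members led by the proximal end numbered 15 or 16 in place of 19 with other classes added, and those led by the distal end 17 in place of 14, also chosen after seeing the data. With NIC and NNC models the distal share moved by more than the spread between libraries in 14 members, 11 upward and 3 downward. Trdn, Agap3, Trak1 and Stau2 then had no proximal lead in both libraries, and Trdn stood at 90.7% and 92.0% distal with ISM models added. The cause was not tested. No paired analysis was possible because the series has 1 group and the replicate numbers pair no samples. The gene-level and last-exon tests could not be run without a replicate. Depth limits the shares: the interval of the difference between the libraries lies within 20 points of 0 in 13 of 39 members.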
